A study of Mus musculus with 8 samples.

Results

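Hmox1, Nqo1, Gclc, Gclm, Txnrd1, Srxn1, Gsta4, Gsr, Osgin1 and Prdx1 are 10 antioxidant genes tied to the transcription factor NRF2. They were taken by name from the 17097 genes that the arrays measured in basal cells of mouse back skin epidermis. The arrays carry 15 probe sets whose only gene symbol is one of these names, of 45141 probe sets in all. Where a gene had several, the probe set with the highest mean over the 8 arrays stands for it.

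The mice were of the outbred CD1 strain and fell into 3 groups. CTRL denotes 3 untreated mice. EXPD4 denotes 3 mice whose skin was under force-driven expansion, taken at day 4. TPA denotes 2 mice treated with 12-O-tetradecanoylphorbol-13-acetate, a phorbol ester that acts on protein kinase C and makes mouse skin thicken and inflame. Each array holds the amplified RNA of 300 sorted cells of 1 mouse. Cells were gated as positive for the integrin ITGA6 and negative for CD34, which removes follicle bulge cells and leaves interfollicular epidermis and infundibulum. No genetic modification is named, and the TPA dose, the time after treatment and the age of the mice are not given in the sources used here.

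NRF2, encoded by Nfe2l2, is held in the cytoplasm by KEAP1 and degraded. Electrophiles and oxidants modify KEAP1, and NRF2 then enters the nucleus, pairs with a small MAF protein and binds antioxidant response elements near genes of glutathione synthesis, thioredoxin cycling, quinone reduction and heme breakdown. BACH1 competes for the same elements and is best known as the repressor of Hmox1. In skin this programme protects keratinocytes from oxidants, ultraviolet light and applied chemicals.

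Signals were summarised by RMA and are given as log2, so that a difference of 1 is a 2-fold change. Means are given ± SD over n = 3 CTRL, 3 EXPD4 or 2 TPA arrays, and differences ± SE. A gene was called at an adjusted p under 0.05 in limma's moderated test with Benjamini-Hochberg adjustment over all 17097 genes. Levels of different genes are not set against each other, because probes differ in brightness. All 10 genes lay above the background limit on every array. That limit is the 95th percentile on each array of 79 receptor genes for odours, pheromones and trace amines, and ranged from 6.37 to 6.55.

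Krt5, the basal keratin, was at 13.23 or higher on every array, and Cd34 was under the background limit on all 8. Itga6, the gate gene itself, was well above the limit throughout and lower in EXPD4 and in TPA arrays than in CTRL arrays (-0.47 and -0.69). A set of stress genes goes against the labels CTRL and TPA, since phorbol ester is known to induce them. Of 10 measured stress and wound genes, among them Krt6a, Krt16 and the phorbol ester-inducible Odc1, all 10 were lower in the arrays labelled TPA than in those labelled CTRL. Their summed linear signal ran from 37616 to 41666 in CTRL, 29365 to 31690 in EXPD4 and 12697 to 15680 in TPA. Directions below follow the labels. If the labels CTRL and TPA were exchanged, the TPA versus CTRL differences would change sign and the EXPD4 comparisons would swap. The part of this discrepancy in the results was not tested.

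Promoters of 6 of the 10 genes were at hand as RefSeq windows of the GRCm38.p6 build, from 250 bases before to 50 bases after the start of the gene (8 windows, 3 of them for Txnrd1). Hmox1, Gclc, Gsta4 and Gsr are named only. Each window was searched on both strands for TGACNNNGC, the core of the antioxidant response element, and for TGANTCA, the AP-1 heptamer, which reads the same on both strands and can lie inside the first motif. The former occurred in 12.4% and the latter in 7.81% of all 32851 windows. At least 1 window held the antioxidant core for Gclm, Txnrd1, Srxn1 and Prdx1, and the AP-1 heptamer for Srxn1, Osgin1 and Prdx1. The 250 bases before the start are shown for a pair of genes that were lower in TPA arrays (Srxn1 and Gclm) and a pair that were called in no comparison (Prdx1 and Osgin1), with matches in capitals.
Srxn1 (chr2:152105274-152105523, plus strand): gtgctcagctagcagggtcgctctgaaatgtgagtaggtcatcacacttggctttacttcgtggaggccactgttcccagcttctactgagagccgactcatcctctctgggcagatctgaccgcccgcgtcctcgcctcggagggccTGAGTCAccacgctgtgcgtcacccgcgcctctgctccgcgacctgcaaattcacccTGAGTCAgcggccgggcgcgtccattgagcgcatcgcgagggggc
Gclm (chr3:122245307-122245556, plus strand): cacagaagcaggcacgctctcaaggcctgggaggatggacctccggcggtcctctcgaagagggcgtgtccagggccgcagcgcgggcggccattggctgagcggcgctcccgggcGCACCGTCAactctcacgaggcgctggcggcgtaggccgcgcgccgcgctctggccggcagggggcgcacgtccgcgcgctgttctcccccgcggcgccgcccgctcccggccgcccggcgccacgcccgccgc
Prdx1 (chr4:116685349-116685598, plus strand): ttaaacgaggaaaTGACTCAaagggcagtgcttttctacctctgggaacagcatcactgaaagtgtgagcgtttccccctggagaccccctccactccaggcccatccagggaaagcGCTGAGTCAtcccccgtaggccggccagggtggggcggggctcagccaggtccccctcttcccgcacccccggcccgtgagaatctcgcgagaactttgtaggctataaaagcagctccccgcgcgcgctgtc
Osgin1 (chr8:119436897-119437146, plus strand): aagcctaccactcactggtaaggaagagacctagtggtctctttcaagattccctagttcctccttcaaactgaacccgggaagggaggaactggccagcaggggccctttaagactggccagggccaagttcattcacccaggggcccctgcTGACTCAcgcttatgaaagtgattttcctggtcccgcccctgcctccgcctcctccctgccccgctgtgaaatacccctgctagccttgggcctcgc
Srxn1 carried 2 heptamers that begin 102 and 45 bases before the start, and its single match to TGACNNNGC lies past the start and is not shown. The heptamer 45 bases before the start is followed by gc but has G where TGACNNNGC has C. The search therefore did not count it as a core. In Gclm the core begins 134 bases before the start. In Prdx1 a heptamer begins 237 bases before the start, and a second one, 131 bases before it, lies within the antioxidant core. Osgin1 held 1 heptamer, 97 bases before the start. Windows with either motif therefore belong both to genes that fell and to genes that were not called. A match is a run of letters, and binding was not measured.

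Hmox1, the inducible heme oxygenase that breaks heme into biliverdin, iron and carbon monoxide, had the largest difference of the 10 genes in both comparisons with CTRL. Its signal was 9.90, 10.04 and 10.18 in the CTRL arrays, 8.11, 8.21 and 8.33 in the EXPD4 arrays, and 7.21 and 6.66 in the TPA arrays. No array of any group overlapped with another group, and the order was CTRL above EXPD4 above TPA. EXPD4 differed from CTRL by -1.82 ± 0.14, a 3.54-fold lower signal (limma adjusted p = 0.000136). TPA differed from CTRL by -3.10 ± 0.16, an 8.58-fold lower signal (limma adjusted p = 6.47e-06), and EXPD4 exceeded TPA by 1.28 ± 0.16 (limma adjusted p = 0.00325). TPA replicate 2 was close to its background limit of 6.48, so the size of both differences from TPA may be understated. In sorted bulk cells, fewer cells that express a gene and less RNA per cell cannot be told apart.

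Macrophages also express Hmox1, so their markers are given beside it. The summed linear signal of 9 measured macrophage and neutrophil markers ran from 619 to 1076 in CTRL, 576 to 598 in EXPD4 and 561 to 567 in TPA. Of the 9, 5 (Adgre1, Cd163, Itgam, Cxcr2 and Mrc1) lay under the background limit on every array. Cd14 and Cxcr2 were called lower in both other groups than in CTRL, and Cxcr2 lost the call in EXPD4 without CTRL replicate 2 or 3 or EXPD4 replicate 2 or 3 (limma adjusted p up to 0.0819). Lyz2, an abundant myeloid transcript, was at 8.25, 5.36 and 7.12 in the CTRL arrays, and was under the limit in CTRL replicate 2 and in every EXPD4 and TPA array. The part of these cells in the Hmox1 differences was not tested.

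Srxn1 encodes sulfiredoxin, which restores over-oxidised peroxiredoxins. Its leading probe set read 9.86, 9.74 and 9.70 in CTRL, 8.42, 8.80 and 8.65 in EXPD4, and 8.21 and 7.90 in TPA. The groups again did not overlap. EXPD4 differed from CTRL by -1.15 ± 0.12 (limma adjusted p = 0.00061) and TPA by -1.71 ± 0.13 (limma adjusted p = 5.11e-05). All 4 probe sets of Srxn1 were called lower in both comparisons, by 0.91 to 1.17 in EXPD4 and by 0.95 to 1.71 in TPA. The dimmest of the 4 was under the background limit in every EXPD4 and TPA array, and its difference may therefore be understated. The step from EXPD4 to TPA was less certain. It was 0.57 ± 0.13 (limma adjusted p = 0.0432) for the leading probe set, and none of the other 3 was called (0.49, 0.34 and 0.04, limma adjusted p from 0.075 to 0.94). That call did not hold in 6 of 8 fits with 1 array removed (any CTRL array, EXPD4 replicate 2 or 3, or TPA replicate 2), with a limma adjusted p of up to 0.183.

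Gsta4, a glutathione transferase that conjugates the lipid peroxidation product 4-hydroxynonenal, was at 11.28, 11.40 and 11.45 in CTRL and at 10.74, 10.66 and 10.82 in EXPD4. The TPA arrays read 9.29 and 9.16. Again no groups overlapped. The difference was modest in EXPD4 (-0.64 ± 0.08, limma adjusted p = 0.00148) and large in TPA (-2.15 ± 0.09, 4.45-fold, limma adjusted p = 2.49e-06). EXPD4 exceeded TPA by 1.52 ± 0.09 (limma adjusted p = 7.98e-05), the largest step between those groups among the 10 genes. Hmox1, Srxn1 and Gsta4 were thus the 3 of 10 with every CTRL array above every EXPD4 array and every EXPD4 array above every TPA array, an order held by 4.83% of all genes. None of the 10 had the opposite order, which 4.21% of all genes had.

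**Figure D1:**
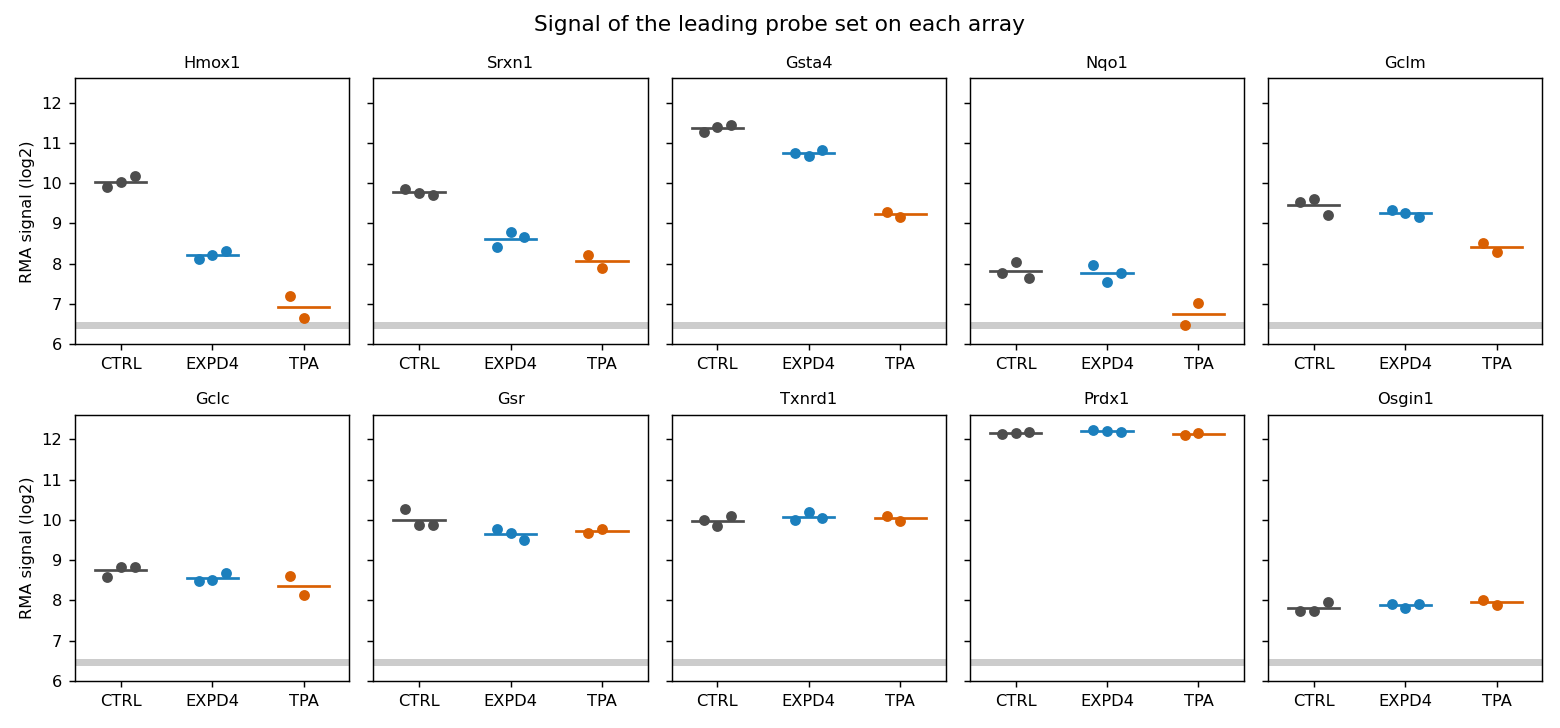
Signal of the leading probe set (RMA, log2, vertical axis) of each of the 10 genes on the CTRL, EXPD4 and TPA arrays (points, replicates 1 to 3 from left to right; bars, group means; grey band, range of the background limit over arrays). Hmox1, Srxn1 and Gsta4 step down from CTRL to EXPD4 to TPA, Nqo1 and Gclm are low in TPA arrays, and Txnrd1, Prdx1 and Osgin1 are nearly level.

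Nqo1 and Gclm were lower in TPA arrays and were not called in EXPD4 arrays. Nqo1 encodes the quinone reductase that is a standard readout of NRF2 activity. It was at 7.77, 8.05 and 7.64 in CTRL, 7.96, 7.56 and 7.78 in EXPD4, and 6.48 and 7.02 in TPA, so that CTRL and EXPD4 overlapped and both TPA arrays lay below them. TPA replicate 1 was barely above its background limit of 6.47, so the size of the fall may be understated. TPA differed from CTRL by -1.07 ± 0.19 (limma adjusted p = 0.00395), a 2.10-fold lower signal. EXPD4 differed from CTRL by -0.05 ± 0.17 (limma adjusted p = 0.906), with a 95% interval from -0.44 to 0.33. The difference of EXPD4 from TPA was 1.02 ± 0.19 (limma adjusted p = 0.0171), and lost its call without EXPD4 replicate 3 (limma adjusted p = 0.053) or TPA replicate 1 (limma adjusted p = 0.091).

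Gclm encodes the modifier subunit of glutamate-cysteine ligase, the enzyme that limits glutathione synthesis, and Gclc its catalytic subunit. Gclm read 9.53, 9.61 and 9.22 in CTRL, 9.33, 9.27 and 9.17 in EXPD4, and 8.52 and 8.30 in TPA. The TPA arrays lay apart from all others, at -1.04 ± 0.13 from CTRL (limma adjusted p = 0.000596) and with EXPD4 0.85 ± 0.13 above TPA (limma adjusted p = 0.00761). EXPD4 and CTRL differed by -0.20 ± 0.11 (limma adjusted p = 0.366, 95% interval from -0.46 to 0.06). Gclc was at 8.59, 8.84 and 8.83 in CTRL, 8.48, 8.51 and 8.68 in EXPD4, and 8.60 and 8.12 in TPA, and its groups overlapped. Gclc was called in no comparison. Its difference between TPA and CTRL was -0.39 ± 0.15 (limma adjusted p = 0.104), and it became a call without TPA replicate 1 (-0.63, limma adjusted p = 0.0188). Whether the subunits Gclm and Gclc differed from each other in their response was not tested.

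Gsr encodes glutathione reductase, which returns oxidised glutathione to its reduced form with NADPH, and its 2 probe sets gave different answers. The leading one read 10.26, 9.87 and 9.88 in CTRL, 9.77, 9.66 and 9.50 in EXPD4, and 9.68 and 9.77 in TPA. All CTRL arrays lay above the others, yet neither difference passed (EXPD4 -0.36 ± 0.12, limma adjusted p = 0.101, and TPA -0.28 ± 0.13, limma adjusted p = 0.205). The other read 9.53, 9.43 and 9.52 in CTRL, 9.08, 8.78 and 8.75 in EXPD4, and 8.45 and 8.72 in TPA. It was called lower in EXPD4 (-0.62 ± 0.11, limma adjusted p = 0.00927) and in TPA (-0.91 ± 0.13, limma adjusted p = 0.00135). With the mean of both probe sets Gsr was also called, at -0.49 in EXPD4 and -0.59 in TPA (limma adjusted p = 0.0149 and 0.00618). For Gsr the call thus turns on the choice of probe set.

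**Figure D2:**
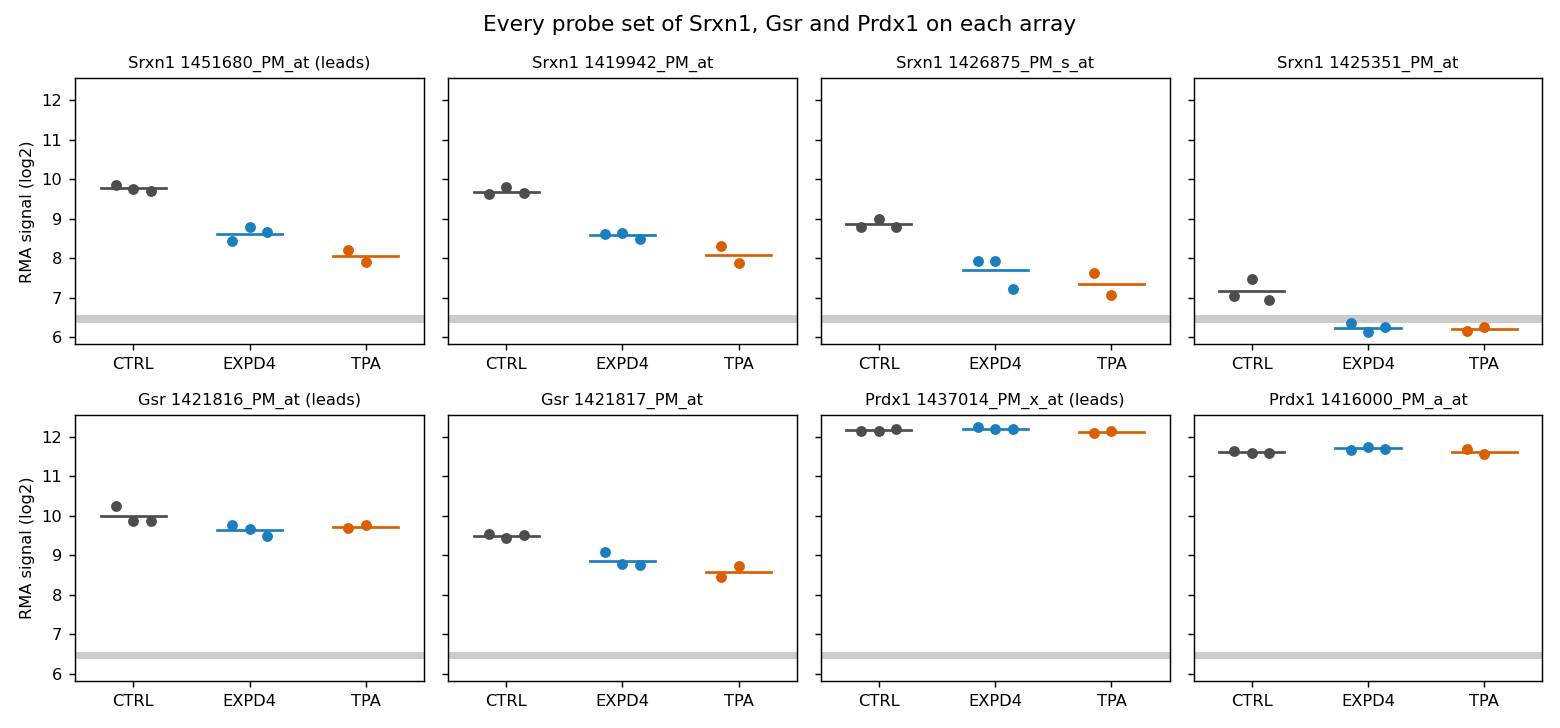
Signal (RMA, log2, vertical axis) of every probe set of Srxn1, Gsr and Prdx1 on each array (points), with group means (bars) and the range of the background limit (grey band). The 4 probe sets of Srxn1 share their direction, of the pair for Gsr 1 lies further below CTRL in the other arrays, and both for Prdx1 are nearly level.

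Txnrd1, Prdx1 and Osgin1 did not pass in any comparison, and their intervals were narrow. Txnrd1, the cytosolic thioredoxin reductase, read 10.01, 9.85 and 10.08 in CTRL, 10.00, 10.19 and 10.05 in EXPD4, and 10.09 and 9.98 in TPA. The 3 groups overlapped, and the 95% interval of TPA minus CTRL ran from -0.17 to 0.28, whose upper end is a 1.21-fold rise. Prdx1, a peroxiredoxin that removes hydrogen peroxide, read 12.14, 12.15 and 12.19 in CTRL, 12.24, 12.20 and 12.19 in EXPD4, and 12.10 and 12.16 in TPA. Its interval for TPA minus CTRL ran from -0.19 to 0.13. The leading probe set of Prdx1 is of the x_at type, whose probes can match related transcripts. The second one ran from 11.55 to 11.75 over the 8 arrays and gave 0.01 ± 0.08 for TPA minus CTRL.

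Osgin1, an oxidative stress-induced growth inhibitor, read 7.73, 7.74 and 7.97 in CTRL, 7.92, 7.82 and 7.91 in EXPD4, and 8.0 and 7.90 in TPA. Its difference between TPA and CTRL was 0.14 ± 0.10 (limma adjusted p = 0.38), with an interval from -0.08 to 0.36. For Hmox1 the interval of the same difference ran from -3.46 to -2.74, apart from those of Txnrd1, Prdx1 and Osgin1.

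In counts, 3 of the 10 genes were called lower and 0 higher in EXPD4 than in CTRL, beside 5.78% of all genes called lower and 5.69% called higher there (11.5% in either direction). The 7 others did not pass, and 4 of the 10 were at an unadjusted p under 0.05. In TPA against CTRL, 5 were lower and 0 higher, beside 10.6% and 10.2% of all genes (20.8% in either direction), and 6 were at an unadjusted p under 0.05. EXPD4 exceeded TPA for 5 of them and fell below it for 0, beside 3.16% and 2.81% of all genes (5.98% in either direction), and 5 were at an unadjusted p under 0.05. Arrays of the groups did not overlap for 4 genes lower in EXPD4 than in CTRL (14.5% of all genes, and 0 of the 10 beside 15.4% in the other direction), for 6 lower in TPA than in CTRL (25.4%, and 0 beside 20.4% in the other direction) and for 6 higher in EXPD4 than in TPA (21.8%, and 0 beside 13.9% in the other direction). Gclc, Txnrd1, Gsr, Osgin1 and Prdx1 were called in no comparison, as were 76.8% of all genes. These comparisons share arrays and are not independent of one another. All 10 genes had a mean signal above that of the median gene. A filter on low signal kept the 8548 genes above that median. Of these, 2075 were called in EXPD4 against CTRL (1056 higher) and 3317 in TPA against CTRL (1608 higher). In EXPD4 against TPA 1126 were called (649 higher). Those are larger shares than of all genes. The median difference of the 10 genes was -0.20 in EXPD4 against CTRL, -0.72 in TPA against CTRL and 0.38 in EXPD4 against TPA, where the medians of all genes were 0.01, -0.03 and 0.03. Hmox1, Srxn1 and Gsta4 were lower than CTRL in both other groups, as were 4.86% of all genes. With the TPA arrays left out of the fit, the count for EXPD4 against CTRL was still 3. The 5 calls of EXPD4 against TPA were 3 without EXPD4 replicate 3 and 3 in a fit of those groups alone. The number of all genes called there moved from 1022 to 636, 560 or 568 without EXPD4 replicate 2, EXPD4 replicate 3 or TPA replicate 1, and that of EXPD4 against CTRL from 1960 to 1261 without CTRL replicate 2.

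**Figure D3:**
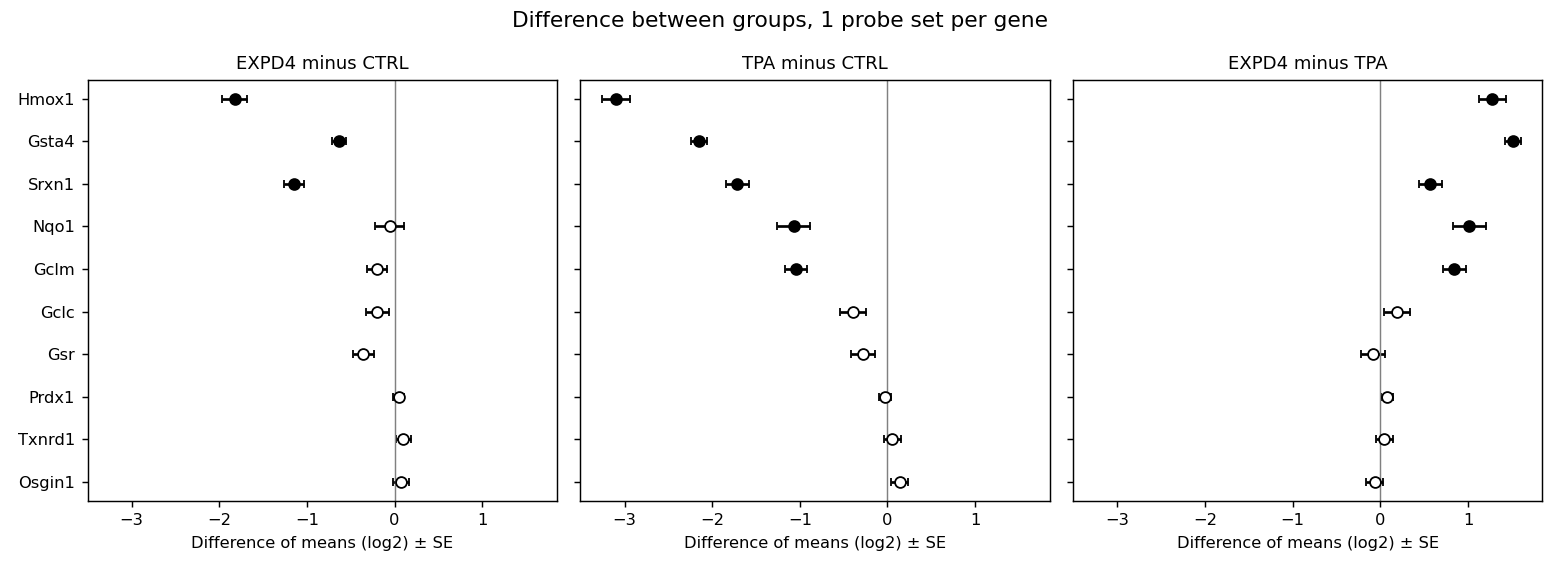
Difference of group means (log2, horizontal axis, bars show the SE) of the 10 genes in the 3 comparisons, ordered by TPA minus CTRL. Filled points passed limma's test (3, 5 and 5 genes) and open points did not; the filled points lie below 0 in both comparisons with CTRL and above 0 in EXPD4 minus TPA.

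Of 9 listed regulators of the pathway 7 were measured under their own symbol (Keap1 and Sqstm1 were not). In EXPD4 against CTRL 0 of the 7 were called lower and 0 higher by limma, beside 5.78% and 5.69% of all genes. With 7 genes, 0 calls do not show equal levels. Of the 7, 1 (Maff, -0.56 ± 0.17, limma adjusted p = 0.0764) was at an unadjusted p under 0.05. With the filter on low signal 1 was called lower in EXPD4. In TPA against CTRL 3 were higher and 1 lower, with a median of 0.31, where 10.2% and 10.6% of all genes were called. The higher ones were 1 without CTRL replicate 2 or 3 or either TPA array, and the lower ones 0 without CTRL replicate 1 or TPA replicate 2. Nfe2l2, which encodes NRF2 itself, was at 8.91, 8.71 and 8.77 in CTRL, 8.63, 8.92 and 8.75 in EXPD4, and 8.43 and 8.08 in TPA. It was lower in TPA than in CTRL (-0.54 ± 0.13, limma adjusted p = 0.0167), and lost this call without CTRL replicate 1 or TPA replicate 2 (limma adjusted p up to 0.109). A transcript level does not measure NRF2 protein, which is set mainly by its degradation.

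Mafk, a small MAF protein that pairs with both NRF2 and BACH1, was higher in TPA arrays (10.43 and 10.51) than in CTRL arrays (9.64, 9.62 and 9.86), by 0.76 ± 0.10 (limma adjusted p = 0.000782). It also lay below TPA in EXPD4 (-0.65 ± 0.10, limma adjusted p = 0.00743). Its relative Maff was lower in EXPD4 than in TPA (-0.97 ± 0.19, limma adjusted p = 0.0234), a call lost without TPA replicate 1 (limma adjusted p = 0.134) and in a fit of those groups alone (limma adjusted p = 0.0872). Nfe2l1, a relative of NRF2, was higher in TPA by 0.28 ± 0.07 (limma adjusted p = 0.0254), and lost the call in 4 of the 8 fits without 1 array (CTRL replicate 2 or 3, TPA replicate 1 or 2, limma adjusted p up to 0.109). Bach1, named after its values were seen, read 8.62, 8.91 and 9.01 in CTRL, 8.56, 9.08 and 8.91 in EXPD4, and 9.51 and 9.31 in TPA. Its difference of 0.56 ± 0.17 in TPA was just past the threshold (limma adjusted p = 0.046) and did not pass without any of the CTRL or TPA arrays or EXPD4 replicate 3 (limma adjusted p up to 0.22).

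Outside the 10 genes, antioxidant genes went both ways. Over 6 lists with 89 names, 80 were measured, and 11 were higher and 10 lower in EXPD4 than in CTRL, or 13.8% and 12.5% of those measured, against 5.69% and 5.78% of all genes. Without any one of the CTRL arrays, EXPD4 replicate 1 or EXPD4 replicate 2, these counts were 6 to 8 higher and 5 to 6 lower. In TPA against CTRL 18 were higher and 19 lower, or 22.5% and 23.8% of those measured, against 10.2% and 10.6% of all genes. Without any one of the CTRL arrays, the counts in TPA were 13 higher and 14 to 17 lower. All genes include many dim ones, whereas 8 of the 80 lay under the background limit on every array. With the filter on low signal, 8548 genes were tested. Of these, 2075 were called in EXPD4 (1056 higher) and 3317 in TPA (1608 higher), larger shares than of all genes. The lists then had 11 higher and 10 lower in EXPD4, and 17 and 20 in TPA. The shares of all genes given here also stand beside the counts of each list below. Among 26 measured glutathione genes, 5 were higher and 3 lower in EXPD4, and 6 higher and 6 lower in TPA, where the median was -0.12. Without any one of the CTRL or EXPD4 arrays, 3 or 4 were higher and 0 or 1 lower in EXPD4. In TPA 5 were higher and 4 or 5 lower without any one of the CTRL arrays. Glrx, glutaredoxin, read 10.06, 10.23 and 10.13 in CTRL, 9.32, 9.49 and 9.47 in EXPD4, and 8.54 and 7.85 in TPA (-1.95 ± 0.18 for TPA minus CTRL, limma adjusted p = 0.000113). Its call in EXPD4 (-0.71 ± 0.16, limma adjusted p = 0.0205) did not hold without CTRL replicate 2 or 3 or any EXPD4 array (limma adjusted p up to 0.0756). Gsto1, an omega-class glutathione transferase, was lower in TPA by 0.67 (-0.67 ± 0.08, limma adjusted p = 0.000446), and EXPD4 differed from CTRL by -0.03 ± 0.07.

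Gstm2, a mu-class glutathione transferase, went the other way. It read 9.47, 9.38 and 9.34 in CTRL, 10.21, 10.23 and 10.36 in EXPD4, and 10.77 and 10.78 in TPA, an ascending order with no overlap. It was higher by 0.87 ± 0.07 in EXPD4 (limma adjusted p = 0.000194) and by 1.38 ± 0.08 in TPA (limma adjusted p = 1.33e-05). Mu-class genes are close in sequence, so their probe sets may not be independent. Slc3a2, the heavy chain shared by amino acid exchangers, was higher in EXPD4 (0.37 ± 0.07, limma adjusted p = 0.0129, but limma adjusted p = 0.0563 without CTRL replicate 2). Abcc4, an exporter, was higher in EXPD4 by 0.73 ± 0.12 (limma adjusted p = 0.0045). Mgst2, a microsomal transferase, was 1.16 higher in EXPD4 than in TPA (SE 0.18, limma adjusted p = 0.00881). Chac1, which degrades glutathione, was called lower in both groups but lay under the background limit on every array, and its call in EXPD4 was lost without any one of the CTRL arrays or EXPD4 replicate 2 (limma adjusted p up to 0.068).

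Of 14 measured thioredoxin, peroxide and superoxide genes, 3 were higher and 2 lower in EXPD4, and 3 were higher and 2 lower in TPA. In EXPD4 the lower ones were 1 without any one of the CTRL or EXPD4 arrays, since Prdx3 (-0.37 ± 0.10, limma adjusted p = 0.0481) was lost, and the higher ones were 2 in 5 of those fits, all but the one without CTRL replicate 1, since Sod2, named after its values were seen, was lost (limma adjusted p up to 0.0875). Txnip, the inhibitor that binds thioredoxin, read 9.65, 9.55 and 9.58 in CTRL, 10.91, 10.89 and 10.77 in EXPD4, and 11.47 and 11.45 in TPA. It was higher by 1.27 ± 0.07 in EXPD4 (limma adjusted p = 4.08e-05) and by 1.87 ± 0.08 in TPA (limma adjusted p = 2.49e-06), while its partner Txn1, named after its values were seen, was at 0.08 ± 0.06 and 0.08 ± 0.07, not called. The sestrins parted. Sesn1 was higher in EXPD4 by 1.11 ± 0.13 and Sesn2 lower (-1.03 ± 0.11), with limma adjusted p of 0.00101 and 0.000611. In TPA they differed from CTRL by 1.20 ± 0.14 and -1.31 ± 0.12. Prdx3, the mitochondrial peroxiredoxin, was lower in TPA (-0.94 ± 0.11, limma adjusted p = 0.000523), where Prdx1 was not called.

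The NADPH-supplying list held 6 measured genes, of which 0 were called in EXPD4 by limma (1 at an unadjusted p under 0.05) and 2 were lower in TPA, with a median of -0.38. Without EXPD4 replicate 3, 1 was called lower in EXPD4, and without TPA replicate 1, 3 were lower in TPA. Pgd, the 6-phosphogluconate dehydrogenase of the pentose phosphate pathway, read 11.32, 11.41 and 11.49 in CTRL, 11.00, 11.06 and 11.34 in EXPD4, and 10.50 and 10.41 in TPA (-0.96 ± 0.11 for TPA, limma adjusted p = 0.000498). Idh1 was at -0.58 ± 0.17 (limma adjusted p = 0.0469), and lost the call in 6 of 8 fits without 1 array (all but those without CTRL replicate 1 or TPA replicate 1, limma adjusted p up to 0.273). In the heme and iron list, 1 of 9 was higher and 1 lower in EXPD4, and 1 higher and 2 lower in TPA, of which 1 was lower without CTRL replicate 2 and 0 higher and 1 lower without TPA replicate 2. Beside these counts, 5.69% of all genes were called higher and 5.78% lower in EXPD4, and 10.2% and 10.6% in TPA. Ftl1, ferritin light chain, was lower in both (-0.44 ± 0.08 in EXPD4 and -0.50 ± 0.09 in TPA, limma adjusted p = 0.0105 and 0.00565). Tfrc, the transferrin receptor, was higher in both (0.48 ± 0.09 and 0.53 ± 0.10, limma adjusted p = 0.0119 and 0.00724), but not with the mean of its probe sets (limma adjusted p = 0.0623 and 0.189), nor without CTRL replicate 2 for EXPD4 (limma adjusted p = 0.05) or TPA replicate 2 for TPA (limma adjusted p = 0.0526). Hmox2, the constitutive heme oxygenase, likewise named after its values were seen, was at -0.14 ± 0.09 in TPA (limma adjusted p = 0.353), beside the fall of Hmox1.

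Of 18 measured reductases and detoxifying enzymes, 2 were higher and 4 lower in EXPD4, and 5 higher and 6 lower in TPA. In EXPD4 the higher ones were 1 without any one of the CTRL or EXPD4 arrays, and the lower ones ran from 3 to 5. In TPA the counts were 2 higher and 4 lower without CTRL replicate 1, and the higher ones were 3 without any other CTRL or TPA array. Akr1b8, an aldo-keto reductase, read 10.68, 10.70 and 10.51 in CTRL, 9.57, 9.62 and 9.85 in EXPD4, and 8.13 and 8.62 in TPA. Its groups did not overlap, as for Hmox1, with differences of -0.95 ± 0.13 in EXPD4 (limma adjusted p = 0.00248) and -2.26 ± 0.15 in TPA (limma adjusted p = 2.35e-05). Ugdh, which makes UDP-glucuronate, was lower in both (-0.62 ± 0.08 and -0.85 ± 0.09). Ephx1, the microsomal epoxide hydrolase, was higher in both, by 0.95 ± 0.08 in EXPD4 (limma adjusted p = 0.000222) and by 1.34 ± 0.09 in TPA (limma adjusted p = 2.55e-05).

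**Figure D4:**
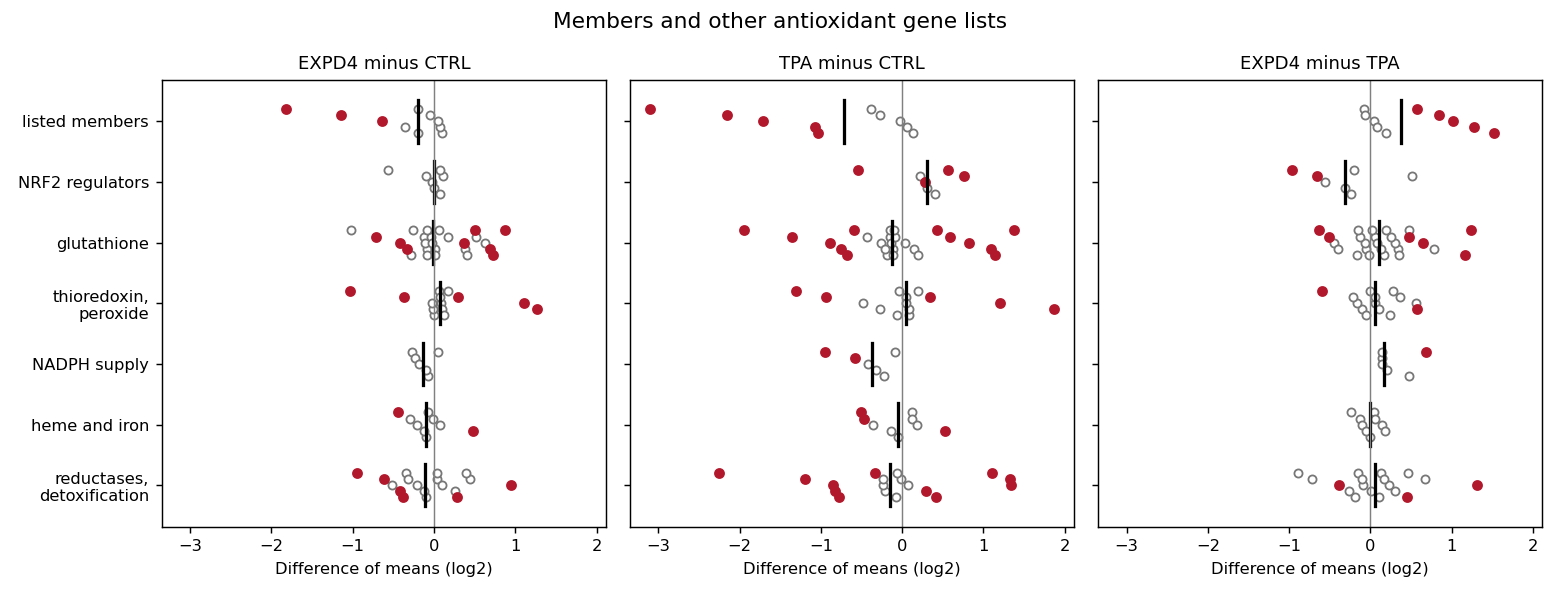
Difference of group means (log2, horizontal axis) of the 10 genes and of 80 other antioxidant genes in 6 lists, in the 3 comparisons; red points passed limma's test, open points did not, and black bars are medians. In TPA minus CTRL the called points of the 10 genes lie all below 0, whereas the glutathione, thioredoxin and detoxification lists have called points on both sides.

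Markers of differentiation also differed from CTRL. Of 9 measured suprabasal markers 5 were higher and 0 lower in EXPD4 and, likewise, 5 and 0 in TPA against CTRL. Of all genes, 5.69% and 10.2% were called higher there. Krt1 lost its call in TPA without CTRL replicate 3 (limma adjusted p = 0.0749) and with those groups alone (limma adjusted p = 0.0639). With trended robust moderation it was lost as well (limma adjusted p = 0.0894). Its difference was 1.26 without TPA replicate 1 and 1.55 without TPA replicate 2. The summed linear signals of the markers were 11261 to 15698 in CTRL, 29437 to 31721 in EXPD4 and 29010 to 31233 in TPA. Between EXPD4 and TPA 0 of the 9 were called, with a median difference of 0.01. Ivl lay below CTRL, at -0.33 ± 0.13 in EXPD4 and -0.48 ± 0.15 in TPA, but was not called (limma adjusted p = 0.168 and 0.0532). Lor and Flg, which mark the outermost living layers, were under the background limit on every array. The stress and wound genes given above moved in the same direction as Hmox1, Srxn1 and Gsta4, with 4 of 10 lower in EXPD4 and 10 of 10 lower in TPA, beside 5.78% and 10.6% of all genes. Krt6b, at 6.47 and 11.27 in the TPA arrays, lost its call in TPA without any one of the CTRL arrays, with those groups alone, and with trended robust moderation (limma adjusted p up to 0.115). Sprr2h lost its call in EXPD4 without CTRL replicate 2 or 3 or EXPD4 replicate 1 or 3 (limma adjusted p up to 0.0804).

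Markers of other cell types also moved. For the counts below, the shares of all genes called against CTRL were 5.69% higher and 5.78% lower in EXPD4, and 10.2% and 10.6% in TPA. Of 5 measured Langerhans cell markers, 2 were lower in EXPD4 and 1 in TPA than in CTRL, with summed linear signals of 1395 to 2098 in CTRL, 817 to 995 in EXPD4 and 1114 to 1253 in TPA. H2-Ab1, which presents antigen, was at -1.93 ± 0.38 in EXPD4 and -2.46 ± 0.42 in TPA (limma adjusted p = 0.0124 and 0.00371), and its call in EXPD4 was lost with the mean of its probe sets (limma adjusted p = 0.087). H2-Aa and Cd74, above the limit on every array, were not called in either group. H2-Aa was at 0.06 ± 0.10 in EXPD4 and 0.02 ± 0.11 in TPA, and Cd74 at -0.24 ± 0.29 and -0.11 ± 0.33. Epcam was at -1.04 ± 0.16 in EXPD4, and Cd207, which defines these cells in epidermis, was under the background limit on every array. Among the 5, Epcam had the highest signal on every EXPD4 and TPA array, so the sums there follow mainly this gene. Of 5 follicle bulge markers 1 was higher in each group, and their sums ran from 1052 to 1338 in CTRL, 1410 to 1797 in EXPD4 and 2849 to 3128 in TPA. That gene was Krt15, a keratin that basal epidermis can also express, at 1.23 ± 0.09 in EXPD4 and 2.38 ± 0.10 in TPA (limma adjusted p = 0.000106 and 2.54e-06), while Cd34, Lgr5 and Lhx2 were under the limit on every array.

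Among 6 fibroblast markers Dcn was higher in TPA (1.69 ± 0.23, limma adjusted p = 0.00117), with sums of 404 to 526 in CTRL, 451 to 493 in EXPD4 and 637 to 738 in TPA, and Col1a2, Pdgfra and Lum under the limit throughout. Col1a1, above the limit on every array, went the other way but was not called (-0.60 ± 0.28 in EXPD4 and -0.68 ± 0.31 in TPA). Col3a1 was at 0.02 ± 0.16 and -0.10 ± 0.18, also not called. Of 2 measured red blood cell genes, Hba-a1 was lower in TPA (-0.63 ± 0.14, limma adjusted p = 0.0124), a call lost without TPA replicate 2 (limma adjusted p = 0.0612) and with the mean of its probe sets (limma adjusted p = 0.0776). Their sums ran from 571 to 658 in CTRL, 419 to 556 in EXPD4 and 411 to 419 in TPA, and Alas2 was under the limit throughout. In the endothelial, T cell, melanocyte and sebaceous lists limma called 0 genes against CTRL in either group, with 1 melanocyte gene in TPA at an unadjusted p under 0.05. The endothelial sums ran from 421 to 1709 in CTRL, 481 to 796 in EXPD4 and 372 to 410 in TPA. The melanocyte sums ran from 296 to 651, 353 to 396 and 402 to 440. Single arrays stood apart, with Cdh5 at 9.73, 7.02 and 6.86 in CTRL and 6.57, 8.39 and 8.42 in EXPD4. Tyrp1 read 7.8 in CTRL replicate 3, beside 5.0 and 5.3 in the other CTRL arrays. With this spread, 0 calls do not show equal levels. These markers were named after their values were seen. The part of any marker list in the differences of the 10 genes was not tested.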

How the data were processed

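RNA of 8 samples, each of 300 sorted cells from 1 mouse, was measured on Affymetrix arrays. The deposited table holds log2 signals from RMA, and the submitters' processing notes give no version. Scanner files, detection calls and scan dates were not used here, and 8 arrays limit the precision. Of 45141 probe sets, 28898 had 1 gene symbol in the platform annotation (2016), 551 several and 15588 none. The probe set with the highest mean over all arrays stood for each of 17097 genes.

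A linear model with 3 group means was fitted in limma 3.58.1 (R 4.3.3) over all genes and arrays, with moderated tests and Benjamini-Hochberg adjustment. The model was also run on simulated data with independent normal noise, which cannot show how it performs where noise is shared between genes or arrays. The 10 genes and all lists were chosen with earlier results of these data known. From each list, up to 3 called genes with the smallest p in each comparison could be named, and genes outside this rule are marked in the text. Motifs were searched in RefSeq promoter windows (GRCm38.p6). Alternatives were quantile normalization, median centring, a filter on low signal, other probe sets, trended robust moderation, only the groups compared, the replicate number as a block, and leaving out each array.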

Additional observations from a re-analysis of the deposited data

How the results depend on the processing

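The 3 differences of Hmox1 and of Gsta4, the lower levels of Srxn1, Nqo1 and Gclm in TPA than in CTRL, and that of Srxn1 in EXPD4 than in CTRL kept their calls and directions under all alternatives run. Of 465 alternative values for single genes, 433 kept their direction and side of the threshold, 17 lost a call, 5 gained one and 10 changed sign. The genes called in EXPD4 against TPA numbered 511 with those groups alone and 541 with the replicate block, with 3 of the 10 genes called in each (Srxn1 and Nqo1 lost). Srxn1 also lost that call with median centring (limma adjusted p = 0.0642) and with the mean of its probe sets (limma adjusted p = 0.121). Leaving out 1 array at a time gave 1261 to 2076 genes called in EXPD4 against CTRL, 2613 to 3344 in TPA against CTRL and 560 to 922 in EXPD4 against TPA. Of the 10 genes, 3 to 3, 5 to 6 and 3 to 5 were then called, and the median of their differences in EXPD4 against TPA ran from 0.26 to 0.58. Signs changed only for differences that were not called. Without 1 array, Nqo1 in EXPD4 against CTRL ran from -0.15 to 0.06 (0.059 without CTRL replicate 2 and 0.049 without EXPD4 replicate 2), Txnrd1 from -0.0063 to 0.11 in TPA against CTRL and from -0.012 to 0.10 in EXPD4 against TPA (-0.010 without EXPD4 replicate 2), and Gclc from -0.049 to 0.43 in EXPD4 against TPA. Prdx1 in TPA against CTRL was 0.0034 with median centring and 0.0082 by its second probe set, and Gsr in EXPD4 against TPA was 0.099 with the mean of its probe sets and 0.28 by its second. The causes were not tested. Deviations of mice with the same replicate number were at most weakly correlated (r = -0.18, 0.0016 and 0.03 between CTRL and EXPD4). With TPA, r was 0.03 and -0.02 for CTRL and 0.01 and -0.07 for EXPD4. Deviations within groups of 3 or 2 arrays are tied to each other. These values therefore cannot show whether the numbers pair the mice. The replicate block left 1642 genes called in EXPD4 against CTRL and 2829 in TPA against CTRL. With 2 TPA arrays, and 1 where either was left out, the spread of that group is taken from the others.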
